A study of Mus musculus with 6 samples.

Results

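The genes described here are 44 genes that protect cells from peroxides and other oxidants or store iron: superoxide dismutases, catalase, glutathione and thioredoxin peroxidases, the enzymes that make, reduce and use glutathione, the transcription factor NRF2 (gene Nfe2l2) with its repressor KEAP1, and the ferritin chains. They were taken by name from the 22969 genes of the count table, all 44 were found, and all 44 passed the filter on low counts that left 12350 genes. The RNA came from hematopoietic stem cells of adult C57BL/6 mouse bone marrow, sorted by their lack of lineage markers, the presence of Sca-1, c-Kit and CD150 and the absence of CD48, with about 500 cells per library (Smart-seq2, a full-length cDNA method with PCR amplification and no molecular identifiers). The 3 libraries labelled Rbfox2-deleted came from mice with floxed Rbfox2 alleles and Vav1-cre, a Cre recombinase driven by the promoter of a gene active across blood cells. The 3 control libraries came from mice with the same floxed alleles (Rbfox2-fl/fl) and no Cre named in the genotype, and Rbfox2 is an RNA-binding regulator of splicing.

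Superoxide dismutases turn superoxide into hydrogen peroxide, which catalase, glutathione peroxidases and peroxiredoxins then remove. Glutathione peroxidases draw their electrons from glutathione, and most peroxiredoxins draw theirs from thioredoxin, while the reductases that restore glutathione and thioredoxin use NADPH. NRF2 is held low by KEAP1 and, once released, raises many of these genes through a DNA element called the antioxidant response element. Ferritin, a shell of heavy and light chains, keeps iron out of the reactions that make radicals. Hematopoietic stem cells are known to be sensitive to oxidants, which push them out of quiescence.

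Libraries 1, 2 and 3 labelled Rbfox2-deleted held 23474895, 35650284 and 33345370 counts, and controls 1, 2 and 3 held 47895459, 51643037 and 55151484. Rbfox2 itself had 2, 87 and 10 counts in the libraries labelled Rbfox2-deleted, against 238, 11 and 250 in controls, so that library 2 of the deleted label held more than control 2 and every direction below rests on the labels. Counts over whole genes take in exons that a deletion may leave in place. Controls 1 and 3 were nearly the same library (chi-square per degree of freedom 3.44, against 156 to 808 for other pairs) and were summed to 1 sample, which leaves 3 samples against 2. Library 1 of the deleted label stood apart, with under 10 counts for 34.4% of the genes tested. Xist RNA was high in libraries 1 and 3 of the deleted label (2821 and 2467 counts) and at most 55 counts elsewhere, so the mice also differed in sex. Every control shared the low Xist of library 2 of the deleted label. With sex as a covariate, the group difference therefore compares library 2 of the deleted label alone with the controls. The study's design text gives 3 mice per group, but with 2 control libraries so alike, p-values measure only the spread between these samples. All 14 stem cell markers reached 1 CPM in at least 1 library, summing to 2014 to 2413 CPM under the deleted label and 2307 to 2357 CPM in controls, and Cd48 had at most 3 counts in any library. The markers did not all follow that sum. Ly6a, which encodes Sca-1 of the sort gate, had 391, 311 and 363 CPM under the deleted label, against 627, 874 and 659 CPM in controls, without overlap. Mllt3 and Ctnnal1 were also lower without overlap, and Ctnnal1 had 0.0505 CPM in library 1 of the deleted label. Meis1 was higher without overlap, with 108, 82.9 and 126 CPM under the deleted label, against 71.0, 54.6 and 75.9 CPM in controls. The groups overlapped for the other stem cell markers. Of the other cell types, the granulocyte and monocyte list was led by Lyz2 and Prtn3. It summed to 1643 to 2014 CPM under the deleted label, against 2117 to 2894 CPM in controls. Mpo and Ctsg stayed below 1 CPM in every library. Not every gene of this list followed its sum. S100a8 had 67.3, 4.15 and 9.31 CPM in libraries 1, 2 and 3 of the deleted label, against 11.8 to 14.4 CPM in controls. S100a9 had 15.97, 14.8 and 2.52 CPM in those libraries, against 3.699 to 4.385 CPM in controls. The groups overlapped for both genes. The megakaryocyte and platelet list, led by Cd9 and Gp9, summed to 521.8 to 585 CPM under the deleted label and 679.6 to 740.5 CPM in controls. The lymphoid list, of which only Cd79b and Nkg7 reached 1 CPM, summed to 219.5 to 291.8 CPM under the deleted label and 329.5 to 405.9 CPM in controls, and the mast cell list to at most 8.98 CPM in any library. The part of other cell types in the members' values was not tested. Levels are CPM, a gene's counts scaled to a common library size with edgeR's TMM factors, and in bulk RNA fewer cells that express a gene and less RNA per cell cannot be told apart.

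Several of these genes are known NRF2 targets, so the stretch of DNA in which a response element can lie is shown for 4 members, with the match to the element's core (TGACNNNGC, searched on both strands) in capitals. These are bases of RefSeq promoter windows on GRCm38.p6, which run from 250 bases before to 50 bases after the start of a gene. The first member is NRF2's own gene, Prdx1 and Gclm are known targets, and Gstm5 is among the members with the smallest p below.
Nfe2l2, chr2:75704859-75704913, minus strand: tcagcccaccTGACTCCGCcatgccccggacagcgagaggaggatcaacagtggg
Prdx1, chr4:116685430-116685510, plus strand: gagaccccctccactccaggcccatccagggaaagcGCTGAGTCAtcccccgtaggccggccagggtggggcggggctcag
Gclm, chr3:122245387-122245467, plus strand: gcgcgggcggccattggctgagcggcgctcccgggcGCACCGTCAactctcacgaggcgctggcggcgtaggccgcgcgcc
Gstm5, chr3:107895776-107895820, plus strand: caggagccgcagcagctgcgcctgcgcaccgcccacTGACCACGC

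The element was found in a window of 8 of the 39 members with such a window (Nfe2l2, Srxn1, Gstm5, Gclm, Prdx1, Mgst1, Txnrd1 and Sod1), or 20.5%, and in 14.0% of all 27025 genes with one. The members not matched were Prdx6, Gclc, Gsr, Hmox1 and Msra. The 8 genes lay on both sides of control, with Srxn1 above and Gstm5, Sod1 and Nfe2l2 below it in all samples. Txn1 and Gstm1, the members with the smallest p below, had no match in their windows. The 80 bases before the start of each are given for comparison with the 4 above.
Txn1, chr4:57956412-57956491, minus strand: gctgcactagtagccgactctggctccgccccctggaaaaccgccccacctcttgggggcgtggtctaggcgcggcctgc
Gstm1, chr3:108017974-108018053, minus strand: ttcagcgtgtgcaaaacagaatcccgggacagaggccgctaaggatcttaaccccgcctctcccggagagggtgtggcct
A match is a run of letters and not a measured binding site.

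As a group the 44 genes took a smaller share of the reads in libraries labelled Rbfox2-deleted. They held 2.08%, 2.16% and 1.99% of the counts in libraries 1, 2 and 3 of that label, against 2.69%, 2.81% and 2.68% in controls 1, 2 and 3. The 2 ferritin genes made up 34.6% to 35.9% of the members' counts under the deleted label and 36.1% to 39.3% in controls. No member passed the test: edgeR's quasi-likelihood test called 0 of 44 at an adjusted p under 0.05, and 0% of the 12350 genes tested. DESeq2 also called 0 of 44, and 3.39% of the genes it tested (1.68% higher, 1.71% lower, by adjusted p). At an unadjusted p under 0.05, edgeR had 5 members lower (Txn1, Gstm1, Gstm5, Gpx1 and Ftl1), or 11.36% of the 44, against 4.56% of all genes lower. It had 0 members higher, against 5.33% of all genes higher and 9.89% in either direction.

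With controls 1 and 3 as 1 sample, the groups did not overlap for 16 members that were lower, or 36.36%, against 17.2% of all genes. They did not overlap for 4 members that were higher (Srxn1, Cat, Prdx3 and Glrx3), or 9.09%, against 14.9% of all genes, while 32% of all genes did not overlap in either direction. The median log2 fold change of the members was -0.18, against 0.11 for all genes tested, and 27 members lay below control, against 46.5% of all genes, and 17 above, against 53.5%. Each library of the deleted label had its own median, and these were -0.18, -0.38 and -0.40 for the members in libraries 1, 2 and 3, against -0.49, -0.09 and -0.02 for all genes. The members thus lay below all genes in libraries 2 and 3 and above them in library 1. Without library 1, edgeR still called 0 of 44 at an adjusted p under 0.05 (0% of 12346 genes), but 16 members (36.36%) were lower at an unadjusted p under 0.05, against 11.9% of all genes, and 1 was higher, against 11.8%.

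**Figure D1:**
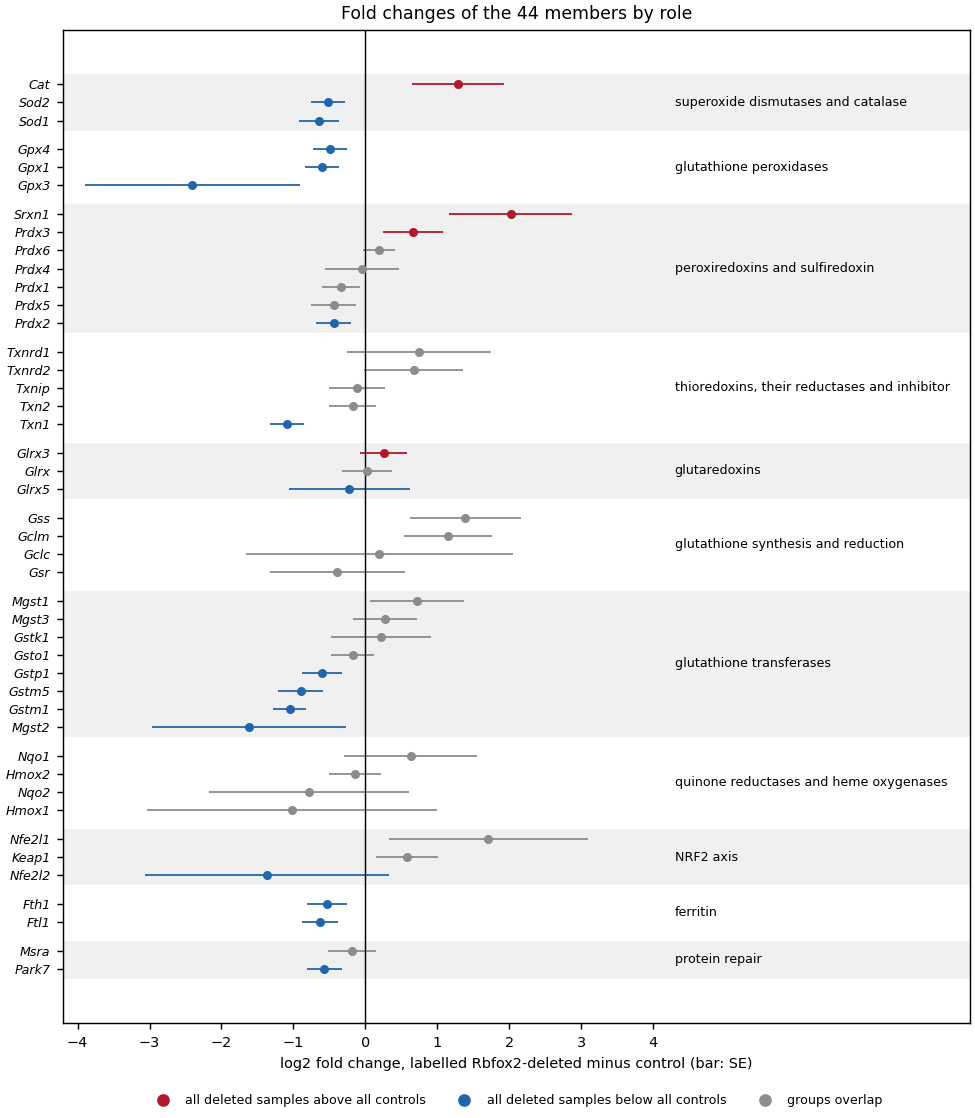
Log2 fold change of each of the 44 genes (x axis, libraries labelled Rbfox2-deleted minus control; bar, SE derived from edgeR's F statistic, 3 samples against 2), grouped by role down the y axis. Blue points are the 16 genes whose samples under the deleted label all lie below both control samples, red points the 4 that lie above, and grey points the rest. The glutathione peroxidases, ferritins and cytosolic thioredoxin lie left of 0. Of these, Gpx1, Gpx4, Fth1 and Ftl1 turn above 0 with a correction for transcript length. The median of all genes is then 0.46, above the fold changes of all of these genes.

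The members' values went with transcript length. Of the 16 members with a transcript under 1200 bases, 13 lay below control with a median log2 fold change of -0.58. All 1540 tested genes under 1200 bases had the same median of -0.58, and 77.1% of them lay below control. The 28 longer members had a median of -0.05, against 0.24 for the 10788 longer genes tested. The 16 non-overlapping lower members had a median transcript length of 1009.5 bases, against 2149 bases for the 4 higher members and 2721 bases for all genes tested. After a correction for transcript length in each library the median of all genes moved to 0.46 and that of the members to 0.39, a difference of -0.07 where it had been -0.29, and 0 members had an unadjusted p under 0.05. The share of all genes at that p was then 2.88%, against 9.89% without the correction. Length-corrected values below are given relative to that all-gene median.

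**Figure D2:**
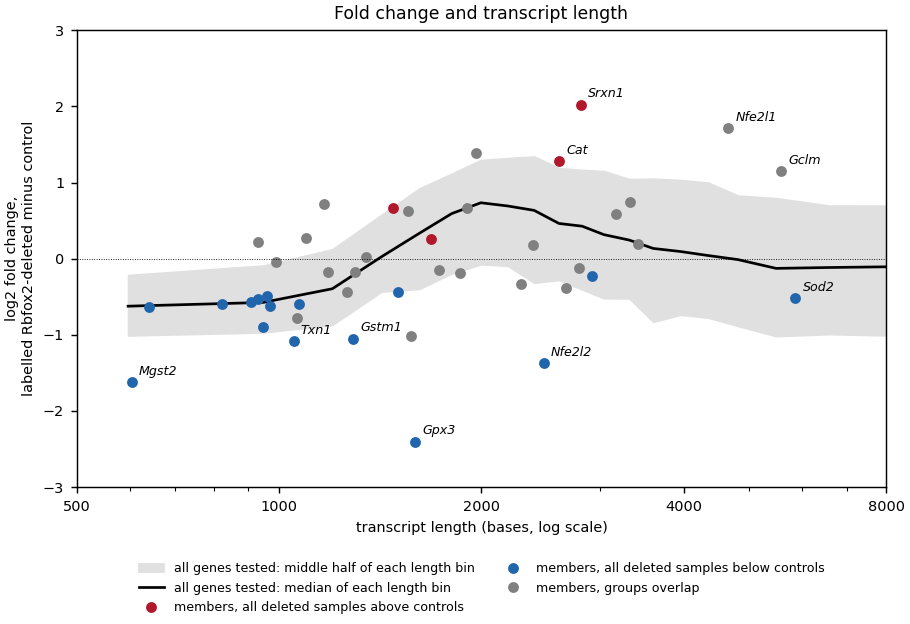
Log2 fold change (y axis, libraries labelled Rbfox2-deleted minus control) against transcript length in bases (x axis, log scale) for the 44 genes (points), with the median and the quartiles of all genes tested in 20 bins of equal number (line and grey band). Members under 1200 bases have a median of -0.58, as the line does there, and members lie on both sides of the band, with Gpx3, Nfe2l2, Mgst2, Txn1, Gstm1 and Hmox1 among those below it and Srxn1, Nfe2l1, Gclm and Cat among those above it.

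The superoxide dismutases lay below control, and catalase lay above it. With a correction for transcript length the dismutases' fold changes turned above 0, but stayed below the median of all genes. Sod1, the copper and zinc enzyme of the cytosol (ENSMUSG00000022982, mm10 chromosome 16, 90220754 to 90226329, plus strand), had 1745, 1429 and 1143 CPM in libraries 1, 2 and 3 labelled Rbfox2-deleted, against 1881, 2583 and 1923 CPM in controls 1, 2 and 3. Sod2, the manganese enzyme of mitochondria (ENSMUSG00000006818, mm10 chromosome 17, 13006846 to 13040063, plus strand), had 237, 243 and 222 CPM in libraries 1, 2 and 3 labelled Rbfox2-deleted, against 327, 343 and 327 CPM in controls 1, 2 and 3. Every library of the deleted label lay below every control for both, with log2 fold changes of -0.64 ± 0.275 (SE, adjusted p = 0.528 by edgeR) for Sod1 and -0.52 ± 0.234 (SE, adjusted p = 0.555 by edgeR) for Sod2. Relative to all genes and corrected for length they were -0.07 and -0.29. Catalase, the peroxisomal enzyme that splits hydrogen peroxide (Cat, ENSMUSG00000027187, mm10 chromosome 2, 103453849 to 103485160, minus strand), had 134, 39.9 and 69.7 CPM in libraries 1, 2 and 3 labelled Rbfox2-deleted, against 32.6, 33.6 and 33.5 CPM in controls 1, 2 and 3. The 3 values under the deleted label were all above control but far apart from each other, and the log2 fold change was 1.28 ± 0.637 (SE, adjusted p = 0.603 by edgeR).

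The high catalase value came from library 1 of the deleted label, where some erythroid genes were also high and others were low. Hba-a1, an alpha globin gene, had 181 CPM there, against 12.1 to 13.3 CPM in the other libraries of that label and 16.2 to 19.7 CPM in controls. The erythroid band 3 gene Slc4a1 and the heme synthesis gene Alas2 had 20.4 and 15.6 CPM in that library and at most 0.441 CPM in any other. Epor, the erythropoietin receptor, had 0.152 CPM in library 1, against 56.8 and 44.7 CPM in libraries 2 and 3 of that label and 19.4 to 22.4 CPM in controls. Klf1, an erythroid transcription factor, had 0, 0.104 and 12.3 CPM in libraries 1, 2 and 3 of that label and 0.416 to 1.01 CPM in controls. Summed without Car2, the 12 other erythroid markers had 594, 119 and 192 CPM in libraries 1, 2 and 3 of the deleted label and 120 to 182 CPM in controls, with Car1 at 0 throughout. Car2 itself had 3583 to 4934 CPM under the deleted label and 2257 to 2903 CPM in controls. The part of erythroid RNA in the catalase value was not tested. Without library 1 the log2 fold change of Cat was 0.70. With sex as a covariate, which compares library 2 of the deleted label alone with controls, it was 0.26.

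All 3 glutathione peroxidases lay below control. With a correction for transcript length or GC content the fold changes of Gpx1 and Gpx4 turned above 0, but stayed below the median of all genes. Relative to that median, Gpx1 and Gpx4 were -0.22 and -0.16 with the length correction. With the GC correction they were -0.36 and -0.34. Gpx1, the cytosolic selenoenzyme (ENSMUSG00000063856, mm10 chromosome 9, 108338903 to 108340343, plus strand), had 2607, 1869.6 and 2031 CPM in libraries 1, 2 and 3 labelled Rbfox2-deleted, against 3267, 3352 and 3181 CPM in controls 1, 2 and 3. The groups did not overlap, and the log2 fold change was -0.60 ± 0.236 (SE, adjusted p = 0.487 by edgeR), or -0.22 relative to all genes after correction for length. Gpx4, which reduces lipid peroxides in membranes and holds back ferroptosis (ENSMUSG00000075706, mm10 chromosome 10, 80047166 to 80056439, plus strand), had 272, 317 and 255 CPM in libraries 1, 2 and 3 labelled Rbfox2-deleted, against 405, 393 and 388 CPM in controls 1, 2 and 3. Its controls all lay above every library of the deleted label, with a log2 fold change of -0.49 ± 0.237 (SE, adjusted p = 0.598 by edgeR). Gpx3, the secreted form, had 0.152, 5.37 and 4.09 CPM in libraries 1, 2 and 3 labelled Rbfox2-deleted, against 22.7, 11.7 and 21.8 CPM in controls 1, 2 and 3. The groups did not overlap, and library 1 of the deleted label held 3 counts.

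Peroxiredoxins differed by member. Prdx1 and Prdx2, cytosolic forms, had 1049, 731 and 707 CPM under the deleted label, against 938, 1137 and 976 CPM in controls, and 831, 727 and 562 CPM under the deleted label, against 957, 969.9 and 945 CPM in controls, so that Prdx2 was separated and Prdx1 was not. Prdx2 shares exons with 2 genes on the opposite strand, Junb and Rnaseh2a, and the sources used here do not give the strand setting of the counting. Prdx6, which reduces phospholipid peroxides, had 1272, 1100.0 and 1065 CPM under the deleted label, against 1072, 944 and 1070.1 CPM in controls, with overlapping groups. Prdx5 had 597, 501 and 328 CPM under the deleted label, against 583, 708 and 576 CPM in controls, and Prdx4, the form of the endoplasmic reticulum, had 428, 230.1 and 122 CPM under the deleted label, against 275, 261 and 279 CPM in controls. The highest value of that label was in library 1 for each of Prdx1, Prdx2, Prdx4, Prdx5 and Prdx6.

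Prdx3, the mitochondrial peroxiredoxin (ENSMUSG00000024997, mm10 chromosome 19, 60864051 to 60874556, minus strand), was the only peroxiredoxin above control in all samples, with 145, 232 and 149 CPM in libraries 1, 2 and 3 labelled Rbfox2-deleted, against 144, 78.0 and 144 CPM in controls 1, 2 and 3. Libraries 1 and 3 of the deleted label lay barely above controls 1 and 3, so that the separation rested on library 2 of the deleted label and on control 2. Its log2 fold change was 0.66 ± 0.417 (SE, adjusted p = 0.722 by edgeR). Srxn1, the sulfiredoxin that repairs overoxidized peroxiredoxins and a known NRF2 target (ENSMUSG00000032802, mm10 chromosome 2, 152105516 to 152111376, plus strand), had 78.2, 40.2 and 19.8 CPM in libraries 1, 2 and 3 labelled Rbfox2-deleted, against 8.401, 14.1 and 8.77 CPM in controls 1, 2 and 3. It was above control in all libraries of the deleted label, with 46.1 ± 29.6 CPM (SD, n = 3) under the deleted label and 11.3 ± 3.88 CPM in control (SD, n = 2), and its log2 fold change of 2.02 ± 0.857 (SE, adjusted p = 0.524 by edgeR) was the highest of the 44. The value was 1.39 without library 1 and 2.32 relative to all genes after correction for length.

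**Figure D3:**
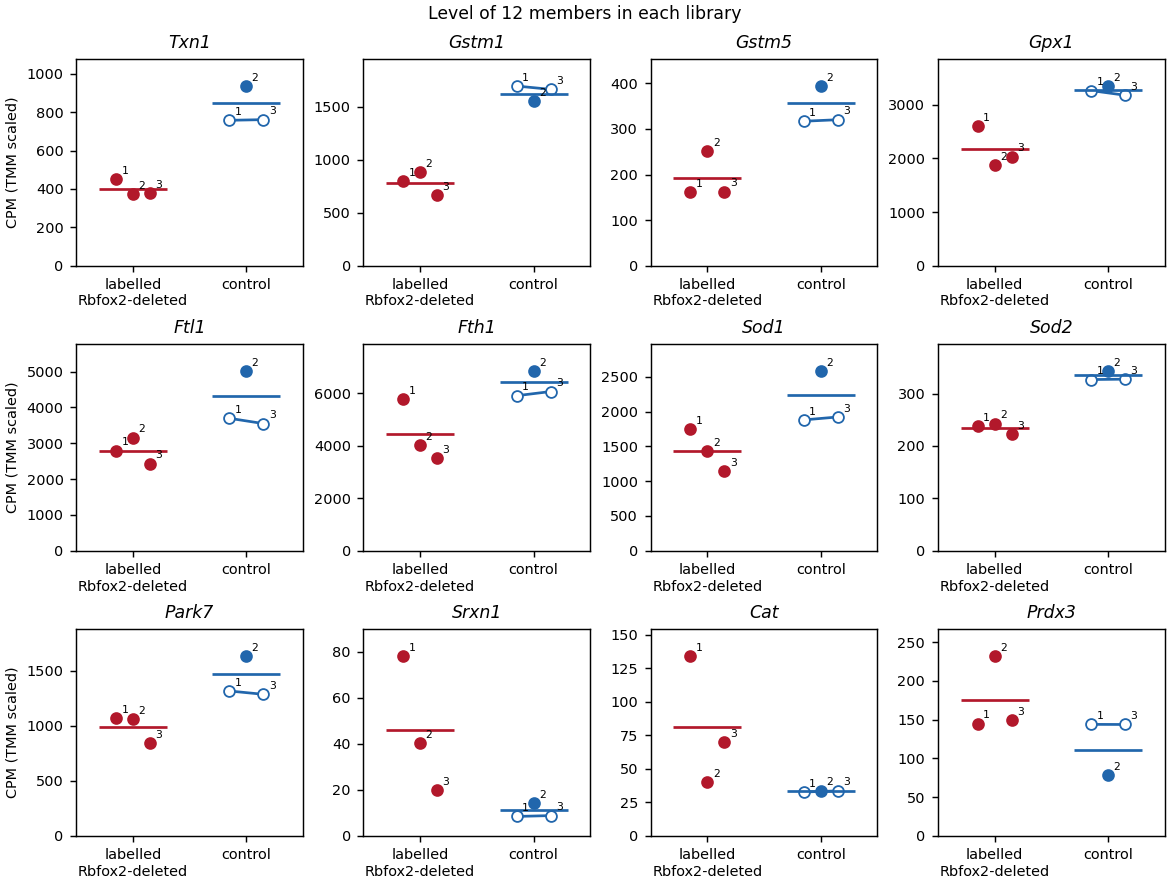
CPM (y axis, scaled by TMM factors, from 0) of 12 genes in each library, with libraries labelled Rbfox2-deleted on the left (red) and controls on the right (blue); numbers are replicate numbers, joined open circles are controls 1 and 3, counted as 1 sample, and lines are group means. Before any correction for transcript length, red points lie below blue ones for Txn1, Gstm1, Gstm5, Gpx1, Ftl1, Fth1, Sod1, Sod2 and Park7. Red points lie above blue ones for Srxn1, Cat and, narrowly, Prdx3. With the length correction the fold changes of Gpx1, Ftl1, Fth1, Sod1, Sod2 and Park7 turn above 0. The median of all genes is then 0.46, above each of these fold changes.

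Cytosolic thioredoxin had the smallest p of all members. Txn1, the small dithiol protein that passes electrons to peroxiredoxins and ribonucleotide reductase (ENSMUSG00000028367, mm10 chromosome 4, 57943373 to 57956411, minus strand), had 449.9, 372 and 376 CPM in libraries 1, 2 and 3 labelled Rbfox2-deleted, against 758, 937 and 761 CPM in controls 1, 2 and 3. All libraries of the deleted label lay well below all controls, with 399 ± 43.7 CPM (SD, n = 3) under the deleted label and 848 ± 125 CPM in control (SD, n = 2). The log2 fold change was -1.09 ± 0.234 (SE, adjusted p = 0.387 by edgeR), with an unadjusted edgeR p of 0.00303. Over 18 alternative settings it ran from -1.44 to -0.27, with adjusted p from 0.0638 to 1, and its length-corrected value relative to all genes was -0.74. Mitochondrial thioredoxin, Txn2, had 552, 333 and 308 CPM under the deleted label, against 411, 487 and 410.2 CPM in controls, and the groups overlapped.

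The thioredoxin reductases, selenoenzymes that restore thioredoxin, varied within groups. Cytosolic Txnrd1 had 72.4, 16.2 and 31.2 CPM under the deleted label, against 40.8, 7.9996 and 38.5 CPM in controls, and control 2 lay far below controls 1 and 3. Mitochondrial Txnrd2 had 37.0, 125 and 46.7 CPM under the deleted label, against 35.3, 52.6 and 34.4 CPM in controls, and the groups overlapped. Txnip, the inhibitor that binds thioredoxin and limits glucose uptake (ENSMUSG00000038393, mm10 chromosome 3, 96557957 to 96561883, plus strand), had 68.8, 111 and 81.2 CPM in libraries 1, 2 and 3 labelled Rbfox2-deleted, against 94.3, 91.4 and 100.04 CPM in controls 1, 2 and 3. The groups overlapped, with a log2 fold change of -0.12 ± 0.384 (SE, adjusted p = 0.975 by edgeR). It turned above 0 without library 1 of the deleted label and with corrections for length or GC content. It also did so with sex as a covariate, which compares library 2 of the deleted label alone with controls. Relative to all genes it was -0.36 with the length correction and -0.21 with the GC correction. Txnip also shares exons with Gm15441 on the opposite strand.

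Among glutaredoxins, which use glutathione to reduce protein disulfides or to carry iron-sulfur clusters, differences were small. Glrx3, a cytosolic iron-sulfur carrier (ENSMUSG00000031068, mm10 chromosome 7, 137437614 to 137468594, plus strand), had 121, 109 and 108 CPM in libraries 1, 2 and 3 labelled Rbfox2-deleted, against 88.4, 98.6 and 91.6 CPM in controls 1, 2 and 3. The groups did not overlap, with a log2 fold change of 0.26 ± 0.327 (SE, adjusted p = 0.914 by edgeR), which was -0.085 with upper quartile scaling. Glrx and the mitochondrial Glrx5 had log2 fold changes of 0.02 and -0.22, and Glrx5 stayed between 13.2 and 18.6 CPM in every library. Glrx5 counts among the non-overlapping members only through the summed controls, since library 2 of the deleted label and control 3 both had 15.4 CPM.

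Genes of glutathione synthesis varied widely within the deleted label. Gclc and Gclm encode the catalytic and modifier subunits of the enzyme that starts glutathione synthesis, and Gss encodes the synthetase that completes it. Gclm had 615, 229.7 and 161 CPM under the deleted label, against 172, 130.4 and 172 CPM in controls. Gclc had 0.0505, 5.84 and 4.29 CPM under the deleted label, against 2.01, 3.68 and 2.46 CPM in controls, with 1 count in library 1 of the deleted label, the library in which Gclm was highest. Gss had 91.0, 112 and 22.0 CPM under the deleted label, against 30.6, 26.5 and 31.0 CPM in controls, so that libraries 1 and 2 were above control and library 3 was below all controls. Gsr, the reductase that restores glutathione, had 6.47, 27.2 and 23.3 CPM under the deleted label, against 15.3, 33.7 and 16.8 CPM in controls. The groups overlapped for all 4, and Gss shares exons with Acss2 on the opposite strand.

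Cytosolic glutathione transferases of the mu class, which attach glutathione to reactive compounds, lay below control for both members. Gstm1 (ENSMUSG00000058135, mm10 chromosome 3, 108012255 to 108017973, minus strand) had 799, 881 and 662 CPM in libraries 1, 2 and 3 labelled Rbfox2-deleted, against 1695, 1554 and 1663 CPM in controls 1, 2 and 3. The groups were far apart, with 781 ± 110.4 CPM (SD, n = 3) under the deleted label and 1616 ± 87.9 CPM in control (SD, n = 2). Its log2 fold change was -1.05 ± 0.228 (SE, adjusted p = 0.387 by edgeR), with an unadjusted edgeR p of 0.00316. Gstm5 (ENSMUSG00000004032, mm10 chromosome 3, 107895821 to 107898686, plus strand) had 161, 251 and 162 CPM in libraries 1, 2 and 3 labelled Rbfox2-deleted, against 317, 394 and 320.3 CPM in controls 1, 2 and 3, with a log2 fold change of -0.90 ± 0.311 (SE, adjusted p = 0.439 by edgeR). The length-corrected values relative to all genes were -0.90 for Gstm1 and -0.63 for Gstm5. Gstm genes lie side by side and are close in sequence, so reads may be split between them, and Gstm5 shares exons with 4933431E20Rik on the opposite strand.

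The other transferases lay on both sides of control. Gstp1, the pi class enzyme, had 264, 199 and 174 CPM under the deleted label, against 320.1, 326 and 316 CPM in controls, with groups that did not overlap, and has a near copy in Gstp2. Gsto1, the omega class enzyme, had 585, 364 and 367 CPM under the deleted label, against 482, 512 and 479.6 CPM in controls, and Gstk1, the mitochondrial and peroxisomal kappa class enzyme, had 167, 31.1 and 96.6 CPM under the deleted label, against 98.7, 68.9 and 99.5 CPM in controls. The membrane-bound Mgst1 had 587, 158 and 154 CPM under the deleted label, against 162, 206 and 157 CPM in controls, with the high value in library 1 of the deleted label alone, and Mgst3 had 168, 87.1 and 83.0 CPM under the deleted label, against 88.8, 98.0 and 88.6 CPM in controls. Mgst2 lay below control, with 0.505, 6.15 and 5.45 CPM under the deleted label, against 15.5, 9.08 and 15.9 CPM in controls, and library 1 held 10 counts. Over the 8 transferases the log2 fold changes ran from -1.62 for Mgst2 to 0.72 for Mgst1.

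The 3 genes of the NRF2 axis lay on different sides of control. Nfe2l2, which encodes NRF2 (ENSMUSG00000015839, mm10 chromosome 2, 75675513 to 75704641, minus strand), had 0.0505, 38.6 and 39.0 CPM in libraries 1, 2 and 3 labelled Rbfox2-deleted, against 77.2, 57.5 and 75.24 CPM in controls 1, 2 and 3. Library 1 of the deleted label held 1 count, and the other libraries of that label held 38.6 and 39.0 CPM, below all controls. The log2 fold change was -1.37 ± 1.69 (SE, adjusted p = 0.908 by edgeR), or -0.80 without library 1, where the unadjusted edgeR p was 0.0383 and the adjusted p was 0.182. Keap1, the adaptor that sends NRF2 to the proteasome (ENSMUSG00000003308, mm10 chromosome 9, 21229730 to 21239361, minus strand), had 135, 67.9 and 102 CPM in libraries 1, 2 and 3 labelled Rbfox2-deleted, against 66.5, 72.4 and 61.3 CPM in controls 1, 2 and 3, with overlapping groups and a log2 fold change of 0.58 ± 0.435 (SE, adjusted p = 0.798 by edgeR). With sex as a covariate, which compares library 2 of the deleted label alone with controls, the log2 fold change was -0.0018. Nfe2l1, the related factor that raises proteasome genes, had 52.9, 5.37 and 5.55 CPM under the deleted label, against 6.72, 5.90 and 7.42 CPM in controls, so that its high value was that of library 1 alone.

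The classic NRF2 targets Nqo1 and Hmox1 overlapped between the groups. Nqo1, which reduces quinones (ENSMUSG00000003849, mm10 chromosome 8, 107388225 to 107403206, minus strand), had 19.3, 10.3 and 42.3 CPM in libraries 1, 2 and 3 labelled Rbfox2-deleted, against 12.7, 17.3 and 14.4 CPM in controls 1, 2 and 3. The groups overlapped, with a log2 fold change of 0.63 ± 0.927 (SE, adjusted p = 0.934 by edgeR) that was -0.078 without library 3 of the deleted label. With sex as a covariate, which compares library 2 of the deleted label alone with controls, the log2 fold change was -0.58. Hmox1, the inducible heme oxygenase that frees iron from heme (ENSMUSG00000005413, mm10 chromosome 8, 75093621 to 75100589, plus strand), had 0, 16.5 and 3.91 CPM in libraries 1, 2 and 3 labelled Rbfox2-deleted, against 15.7, 11.3 and 17.0 CPM in controls 1, 2 and 3. Library 1 of the deleted label had 0 counts, which allows up to 0.152 CPM at 3 counts, for counting error only. Its log2 fold change was -1.02 ± 2.01 (SE, adjusted p = 0.960 by edgeR). It turned to 0.26 with sex as a covariate, again for library 2 of the deleted label alone against controls. The constitutive Hmox2 had 395, 345 and 189 CPM under the deleted label, against 350.1, 334 and 353 CPM in controls, and Nqo2 had 0.606, 9.73 and 22.9 CPM under the deleted label, against 17.9, 20.5 and 17.3 CPM in controls, with 12 counts in library 1.

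**Figure D4:**
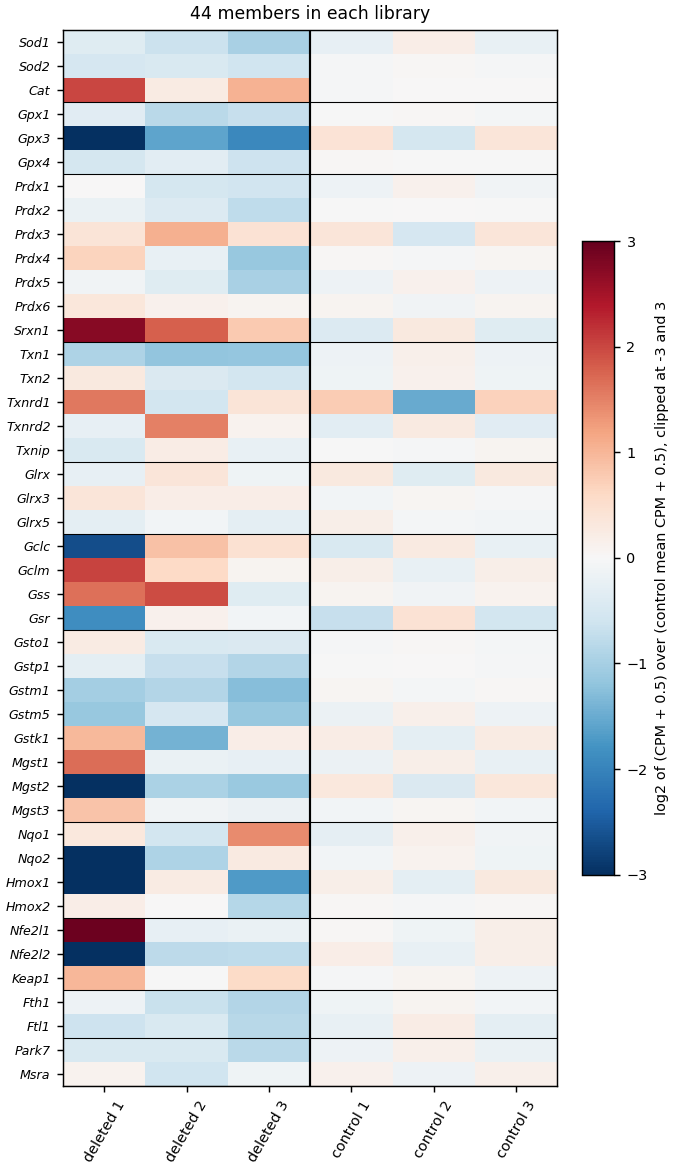
Log2 of (CPM + 0.5) over (control mean CPM + 0.5) for the 44 genes (rows, grouped by role) in each library (columns, libraries labelled Rbfox2-deleted left of the line, controls right of it; colours clipped at -3 and 3). Library 1 of the deleted label holds the deepest colours in both directions, with Nfe2l2, Hmox1, Gpx3, Mgst2 and Nqo2 low and Nfe2l1, Srxn1, Cat and Gclm high.

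Library 1 of the deleted label often held an extreme value, for the members less often than for all genes. It had the highest value of the 5 samples for 15 of 44 members (34.1%), against 28.6% of all genes tested, and the lowest for 9 (20.5%), against 43.4% of all genes. It had under 10 counts for 4 members, Hmox1, Nfe2l2, Gclc and Gpx3, and no other library had under 10 counts for any member. Those 4 are 9.09% of the members, against 34.4% of all genes tested, a difference that was not tested.

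Both ferritin chains lay below control. Their fold changes turned above 0 with a correction for transcript length, and that of Fth1 also with a GC correction. Under these corrections they stayed below the median of all genes. Fth1, the heavy chain with the ferroxidase site (ENSMUSG00000024661, mm10 chromosome 19, 9980598 to 9985098, plus strand), had 5775, 4024 and 3515 CPM in libraries 1, 2 and 3 labelled Rbfox2-deleted, against 5906, 6845 and 6065 CPM in controls 1, 2 and 3. The value in library 1 of the deleted label lay just below control 1, and libraries 2 and 3 lay further below, with a log2 fold change of -0.53 ± 0.282 (SE, adjusted p = 0.642 by edgeR). Ftl1, the light chain that helps iron to form its core (ENSMUSG00000050708, mm10 chromosome 7, 45457944 to 45459884, minus strand), had 2791, 3158 and 2432 CPM in libraries 1, 2 and 3 labelled Rbfox2-deleted, against 3698, 5016 and 3550.2 CPM in controls 1, 2 and 3. No library of the deleted label reached the lowest control, and the log2 fold change was -0.63 ± 0.251 (SE, adjusted p = 0.493 by edgeR), with an unadjusted edgeR p of 0.0441. Both transcripts are short, and relative to all genes the length-corrected values were -0.03 for Fth1 and -0.29 for Ftl1. The ratio of heavy to light chain CPM was 2.07, 1.27 and 1.45 in libraries 1, 2 and 3 of the deleted label, against 1.60, 1.365 and 1.71 in controls 1, 2 and 3, with overlapping groups. Ftl1 has a processed pseudogene, Ftl1-ps1, to which 100809 reads were counted beside 889304 for Ftl1, so reads may be split between them.

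Per length of transcript (CPM per kilobase, mean of the 5 samples), Fth1 had 5630, Ftl1 3516, Sod1 2747, Gpx1 2440.4 and Park7 1301. Nfe2l2, Hmox1 and Gclc had 17.1, 6.14 and 0.941, and Gclc was the lowest of the 44. Park7, also called DJ-1, a sensor of oxidants that stabilizes NRF2 (ENSMUSG00000028964, mm10 chromosome 4, 150897133 to 150914437, minus strand), had 1067, 1061 and 840.1 CPM in libraries 1, 2 and 3 labelled Rbfox2-deleted, against 1318, 1635 and 1287 CPM in controls 1, 2 and 3. The groups did not overlap, with a log2 fold change of -0.57 ± 0.238 (SE, adjusted p = 0.514 by edgeR), or -0.16 relative to all genes after correction for length. Msra, which repairs oxidized methionine, had 181, 111 and 153 CPM under the deleted label, against 184, 150.1 and 188 CPM in controls, and its groups overlapped.

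Other redox and iron genes, 119 in 6 lists, were set beside the members. Of these, 108 were tested and edgeR called 0 at an adjusted p under 0.05. At an unadjusted p under 0.05 it had 6 above control and 9 below, where 5.33% of all genes were higher and 4.56% lower. The same shares of all genes stand beside the counts of each list below. Of the 108, DESeq2 called 4 higher (Txndc5, Tkt, Alas1 and Slc11a2) and 2 lower (Gpx8 and Nxn). Of all genes it tested, DESeq2 called 1.68% higher and 1.71% lower. Tkt, transketolase of the pentose phosphate pathway and a known NRF2 target, had 446, 394 and 319 CPM under the deleted label, against 137, 88.0 and 131 CPM in controls, with a log2 fold change of 1.80 ± 0.327 (SE, adjusted p = 0.387 by edgeR). Alas1, the first enzyme of heme synthesis outside red cells, had 99.70, 47.5 and 60.4 CPM under the deleted label, against 19.0, 12.2 and 17.7 CPM in controls, with a log2 fold change of 2.18 ± 0.625 (SE, adjusted p = 0.387 by edgeR). Txndc5, a disulfide isomerase of the endoplasmic reticulum, had 61.2, 75.4 and 84.3 CPM under the deleted label, against 23.5, 19.1 and 22.3 CPM in controls, with a log2 fold change of 1.81 ± 0.507 (SE, adjusted p = 0.387 by edgeR). The groups did not overlap for any of these 3 genes.

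Among the 23 NRF2 partners and further targets, 2 lay above control and 1 below it at an unadjusted p under 0.05. Besides Tkt, the aldehyde dehydrogenase Aldh2 was higher, with 520.1, 625 and 553 CPM under the deleted label, against 340.2, 169.9 and 321 CPM in controls, and the carbonyl reductase Cbr1 was lower, with 132, 152 and 136 CPM under the deleted label, against 273, 278 and 261 CPM in controls. Among 23 further glutathione genes tested, 0 were higher and 2 lower. Gpx8, a peroxidase of the endoplasmic reticulum, had 0, 0 and 0.0257 CPM under the deleted label, against 5.67, 1.60 and 5.09 CPM in controls, with 0, 0 and 1 counts under the deleted label, and the theta class transferase Gstt2 had 141, 127 and 124 CPM under the deleted label, against 225, 275 and 219.6 CPM in controls. The mu class gene Gstm4 and the cystine transporter Slc7a11, a known NRF2 target, were above control in all samples, Gstm4 with 262, 49.0 and 50.3 CPM under the deleted label, against 49.0, 28.6 and 48.7 CPM in controls, and Slc7a11 with 3.74, 4.07 and 2.44 CPM under the deleted label, against 2.38, 1.54 and 1.76 CPM in controls. Libraries 2 and 3 of the deleted label barely exceeded controls 1 and 3 for Gstm4, and the high value was that of library 1.

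Of the 14 further thioredoxin and methionine sulfoxide genes tested, 1 (Txndc5) lay above control and 4 below it at an unadjusted p under 0.05. Nxn, nucleoredoxin, had 0.101, 0.104 and 0.103 CPM under the deleted label, against 6.48, 2.37 and 5.62 CPM in controls, and the thioredoxin-like Txndc17 had 170.0, 130.2 and 133 CPM under the deleted label, against 288, 219 and 292 CPM in controls. Of the 27 iron genes tested, 2 were higher and 2 lower. The iron-sulfur assembly factors were among both, with Isca1 at 47.8, 64.7 and 83.0 CPM under the deleted label, against 30.3, 23.1 and 26.8 CPM in controls, Bola2 at 81.2, 87.7 and 102 CPM under the deleted label, against 154, 228 and 151 CPM in controls, and Hscb at 202, 246 and 261 CPM under the deleted label, against 326, 478 and 329 CPM in controls. Slc11a2, the iron importer also called DMT1, named after its values were seen, had 6.42, 13.1 and 11.7 CPM under the deleted label, against 3.35, 2.43 and 2.26 CPM in controls.

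Of the 16 selenoprotein genes tested, 1 was higher at an unadjusted p under 0.05 and 0 were lower, and the list median was -0.40. Sephs2, which makes the selenium donor for selenocysteine, had 79.3, 141 and 179.7 CPM under the deleted label, against 55.1, 64.5 and 56.3 CPM in controls, while Selenok, a short selenoprotein of the endoplasmic reticulum, had 524, 488 and 402 CPM under the deleted label, against 555, 763 and 552 CPM in controls. Selenoo, a mitochondrial selenoprotein, had 18.3, 20.98 and 53.2 CPM under the deleted label, against 9.46, 6.96 and 9.85 CPM in controls, and the nuclear Selenoh had 281, 144 and 151 CPM under the deleted label, against 295, 325 and 296 CPM in controls. Of the 5 NADPH oxidase genes tested, which make superoxide in phagocytes, 0 had an unadjusted p under 0.05. Ccs, the copper chaperone that loads Sod1, named after its values were seen, had 0, 138 and 164 CPM under the deleted label, against 219, 295 and 228 CPM in controls, so that it was at 0 counts in library 1 of the deleted label, in which Sod1 was higher than in libraries 2 and 3.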

How the data were processed

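Full-length cDNA libraries (Smart-seq2, about 500 sorted cells each) were sequenced from 3 samples labelled Rbfox2-deleted and 3 controls. The deposited values are read counts per gene, not normalized, made with Trimmomatic 0.39 and featureCounts on mm10, per the submitters' processing notes, which also name DESeq2 1.36.0. For aligner, annotation and strand setting: not given in the sources used here. Rows sharing an identifier were summed (22969 identifiers). Controls 1 and 3 were summed to 1 sample. edgeR 4.0.16 (R 4.3.3) filtered genes with filterByExpr (minimum count 10, minimum total 15), scaled by TMM and ran the quasi-likelihood test, with Benjamini-Hochberg adjustment over 12350 genes and a threshold of 0.05. The SE of a fold change is its absolute log2 value over the square root of the test's F statistic, as edgeR gives none. DESeq2 1.42.0 was an alternative, run on the whole table. Libraries held 23474895 to 55151484 counts. PCR reads without molecular identifiers are not independent molecules, so a limit for 0 counts (3 counts) covers counting error only. Lengths, coordinates and GC content came from GENCODE M21 on mm10, with 1 principal transcript per gene. Promoter windows came from RefSeq on GRCm38.p6. Fit and filters were tested on simulated data. The members, lists and tests were chosen with earlier results of these data known. Full statistics were given for up to 8 members per direction with the smallest unadjusted p among those whose groups did not overlap, for the 6 with the highest mean CPM, and for 13 set genes (Nfe2l2, Keap1, Hmox1, Nqo1, Fth1, Ftl1, Txnip, Sod1, Sod2, Cat, Gpx1, Gpx4 and Txn1). In each other list, the named genes are those without overlap that have the lowest unadjusted p, at most 2 in each direction. Alternatives were other scalings, filters and tests, libraries left out, the replicate block, sex, transcript length and GC content. Some genes that these rules name are not reported here.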

Additional observations from a re-analysis of the deposited data

How the results depend on the processing

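No member was called at an adjusted p under 0.05 under any of 18 alternatives. Over all genes DESeq2 called 478, and the edgeR alternatives called 0. The number of members at an unadjusted p under 0.05, 5 in all, beside 9.89% of all genes, was 12 with controls 1 and 3 as separate libraries (all genes 17.7%), 3 with RLE factors (9.03%), 15 with upper quartile factors (11.5%), 3 with DESeq2 (10.1%) and 14 with no filter on low counts (8.02%). It was 0 with the length correction (2.88%), the GC correction (3.25%) and the replicate block with GC correction (4.40%). It ran from 2 without control 2 (3.49%) to 17 without the library labelled Rbfox2-deleted 1 (23.7%). The members' median log2 fold change, -0.18, was -0.55 with upper quartile factors, -0.35 with no filter, -0.38 with sex, 0.39 with the length correction, 0.31 with the GC correction and 0.075 with the replicate block and GC correction. It ran from -0.39 without the library labelled Rbfox2-deleted 1 to -0.14 without library 3 of that label. The median of all genes was 0.11, and 0.46, 0.45 and -0.20 with the length correction, the GC correction and upper quartile factors. Of 342 values of 19 named members under alternatives, 21 changed sign. With the length correction these were Sod1 0.39, Sod2 0.17, Gpx1 0.24, Gpx4 0.30, Txnip 0.10, Fth1 0.43, Ftl1 0.17 and Park7 0.30. With the GC correction they were Gpx1 0.086, Gpx4 0.11, Txnip 0.24, Fth1 0.13 and Park7 0.016. With sex as a covariate, which compares library 2 of the deleted label alone with controls, they were Txnip 0.23, Nqo1 -0.58, Hmox1 0.26 and Keap1 -0.0018. Glrx3 was -0.085 with upper quartile factors, Txnip 0.014 without the library labelled Rbfox2-deleted 1 and 0.22 with the replicate block and GC correction, and Nqo1 -0.078 without library 3 of that label, against up to 0.97 without library 2. The 19 members were chosen in part for groups that did not overlap. Outside the 19, Gclc kept its sign in 10 of 18 alternatives, and Prdx4 and Glrx kept theirs in 12 of 18. Gpx3, Gclm, Gss, Mgst2 and Nqo2 kept theirs in all 18. The causes were not tested. Replicate numbers did not pair the libraries: deviations of same-numbered libraries correlated at -0.04, -0.02 and 0.05. Both fits with the replicate block kept controls 1 and 3 as separate libraries, unlike the reported fit. The replicate block alone gave 6 members at an unadjusted p under 0.05 (all genes 11.1%), a median of -0.23 and 0 calls. The median of all genes was then -0.27, so the members' median lay 0.037 above it, and 0.064 above it with the block and GC correction, where it lay -0.29 from it in the reported fit. Low counts limit Hmox1, Nfe2l2, Gclc and Gpx3, which had under 10 counts in the library labelled Rbfox2-deleted 1. The cause of these low counts was not tested.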
